A study of Mus musculus with 13 samples.

Results

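The genes described here are 48 mouse genes of mitosis and of G2, the phase before it, measured across the day in resting back skin. They were chosen by name from a list of known mitosis and G2 genes, older aliases allowed, and all 48 had a probe set assigned to a single gene, out of 19938 genes with one. Genes whose average intensity fell in the lowest 25% did not enter the tests, which kept 42 of the 48 and 14953 genes in all. The 6 that were too dim, Cdc25c, Ncapg, Cenpe, Kif22, Kif4 and Hmmr, are described by their values and not counted among the tested genes. The animals were male C57Bl6 mice at postnatal day 46 with no treatment named, taken when hair follicles rest in telogen, kept in 12 h of light and 12 h of dark. Times are given as ZT, the hours since lights on, so that lights went off at ZT12. Whole skin was taken at 13 collections 4 h apart, and each array carried RNA pooled from 3 mice. ZT2 had 3 arrays (hours 2, 26 and 50 of the series) and ZT6, ZT10, ZT14, ZT18 and ZT22 had 2 each, 24 h apart. All animals shared strain, sex, age and light cycle, and no arrhythmic or constant-dark group was among them, so a change with time of day cannot be told apart from a response to the light cycle.

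Cells enter mitosis when CDK1, bound to cyclin A or B, is activated by CDC25 phosphatases against the inhibition of the kinase WEE1. Chromosomes are then condensed and attached through kinetochores to the spindle, a checkpoint delays separation until all are attached, and the anaphase-promoting complex with CDC20 ends mitosis before cytokinesis parts the daughter cells. Transcripts of these genes are low in resting cells and accumulate in G2, through NF-Y bound at CCAAT boxes and through B-MYB and FOXM1 acting with the MuvB complex at the cell cycle genes homology region, or CHR. In telogen skin most dividing cells are basal keratinocytes of the epidermis between the follicles. In RNA of whole skin, more cells in G2 or mitosis and more RNA per such cell cannot be told apart.

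The promoters are shown first because many of the genes carry the motifs just named. RefSeq promoter sequences on GRCm38.p6 were found for 40 of the 48 genes, the others being Ccna2, Cdc25c, Smc4, Cdca2, Aurkb, Tpx2, Dlgap5 and Kif20a. In the lines below each sequence is the 120 bases before an annotated transcription start, read 5′ to 3′ on the gene's strand. Capitals mark the CHR (TTTGAA or TTCGAA), the CCAAT box and the E-box bound by the clock proteins (CACGTG), on either strand. Cdk1, Top2a, Kif11, Prc1, Cdc20 and Ube2c show a CCAAT box followed closely by a CHR. Kif22, Mki67 and Ncapd2 hold such a pair too and are not printed, and another annotated start of Prc1 has no CHR upstream. Anln, which had the largest 24 h change of the 42 members tested, shows neither motif and holds an E-box. Nusap1, which also passed the 24 h test given below, holds none of these motifs and is not printed.
Cdk1, chr10:69352913-69353032, minus strand: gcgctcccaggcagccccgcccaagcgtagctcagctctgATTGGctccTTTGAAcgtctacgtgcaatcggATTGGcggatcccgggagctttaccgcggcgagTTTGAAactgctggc
Top2a, chr11:99024190-99024309, minus strand: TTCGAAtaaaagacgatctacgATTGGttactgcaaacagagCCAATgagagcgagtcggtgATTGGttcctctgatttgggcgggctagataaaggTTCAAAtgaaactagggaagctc
Kif11, chr19:37376262-37376381, plus strand: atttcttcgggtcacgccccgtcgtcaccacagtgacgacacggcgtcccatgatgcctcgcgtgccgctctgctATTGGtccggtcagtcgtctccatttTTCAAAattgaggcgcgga
Prc1, chr7:80294356-80294475, plus strand: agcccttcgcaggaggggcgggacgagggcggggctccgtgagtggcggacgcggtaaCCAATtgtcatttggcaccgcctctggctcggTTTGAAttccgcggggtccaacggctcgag
Cdc20, chr4:118437344-118437463, minus strand: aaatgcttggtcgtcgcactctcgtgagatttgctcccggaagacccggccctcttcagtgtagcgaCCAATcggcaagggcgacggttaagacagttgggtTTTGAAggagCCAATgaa
Ube2c, chr2:164769809-164769928, plus strand: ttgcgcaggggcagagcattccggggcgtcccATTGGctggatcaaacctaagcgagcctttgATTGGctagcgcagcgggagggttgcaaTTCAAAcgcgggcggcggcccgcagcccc
Anln, chr9:22389207-22389326, minus strand: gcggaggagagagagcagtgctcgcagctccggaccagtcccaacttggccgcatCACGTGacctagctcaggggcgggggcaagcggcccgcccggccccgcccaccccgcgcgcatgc

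Over the 250 bases before the start, searched on both strands, 18 of the 40 genes (45.0%) held a CHR, against 15.1% of 11803 tested genes with a promoter entry. A CCAAT box was found in 32 of 40 (80.0%), against 38.9%, and both motifs in 15 of 40 (37.5%), against 5.6%. The E-box was found in 3 of 40 (7.5%), against 9.3%. These were Anln, Ttk and Espl1, and the last 2 did not pass the 24 h test given below. Among 29 genes of DNA replication and S phase, which are expressed before G2, 17.2% held a CHR and 62.1% a CCAAT box. A CCAAT box 20 to 40 bases before a CHR, a window chosen after the positions were seen, was present in 9 of 40 (22.5%) and in 83 of 11803 (0.703%). From the first base of one motif to the first base of the other the distance was 33 bases in Cdk1, 35 in Top2a, 26 in Kif11, 32 in Prc1, 35 in Cdc20 and 28 in Ube2c. A match describes the letters and is not evidence of binding. Different entries for one gene were searched together.

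Keratinocyte and fibroblast genes were bright on the arrays, with mean intensities of 14570 for Krt5, 14050 for Krt10 and 16390 for Col1a1, as the skin label requires. At hours 2 and 46 a library stood apart. The mean of 17 genes of the growing hair matrix and hair shaft, set against each gene's mean over all arrays, was 2.24 (log2) at hour 46 and between -0.55 and 0.12 in the other 12 arrays. The hour 2 mean of 1194 olfactory and vomeronasal receptor genes, which mark the dim end of the arrays, was -0.36, below the other arrays. Hour 2 was also the lowest array for macrophage and dendritic cell (-0.37), dermal fibroblast (-0.32) and resting follicle (-0.30) markers. For endothelial (0.20) and suprabasal keratinocyte (0.18) markers it was the highest. Genes of liver also varied, from -2.11 to 1.25. They were bright in these skin arrays, with mean intensities of 1215 (Fga) to 13910 (Alb). Fits without the hour 2 and hour 46 arrays, and with the hair, receptor or liver mean as a covariate, are given with the cell type markers. The array medians lay between 353.8 and 392.8.

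On average the 48 genes were lowest around lights off and highest around lights on. Their mean, as a log2 deviation from each gene's mean over all arrays, was -0.25 and -0.14 in the ZT10 arrays and -0.29 and -0.21 in the ZT14 arrays. It was 0.17 and -0.15 at ZT18, 0.30 and 0.18 at ZT22, 0.05, 0.17 and 0.12 at ZT2, and 0.03 and 0.01 at ZT6. All 5 arrays around lights on were above all 4 around lights off. Of the 48 genes, 45 were brightest in a ZT22 or ZT2 array, 29 of them at hour 22, and 40 were dimmest in a ZT10 or ZT14 array. The share of all genes brightest or dimmest in these arrays was not counted. The brightest array exceeded the dimmest by 1.25-fold (Ncapd2) to 2.24-fold (Anln), with a median of 1.73.

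**Figure D1:**
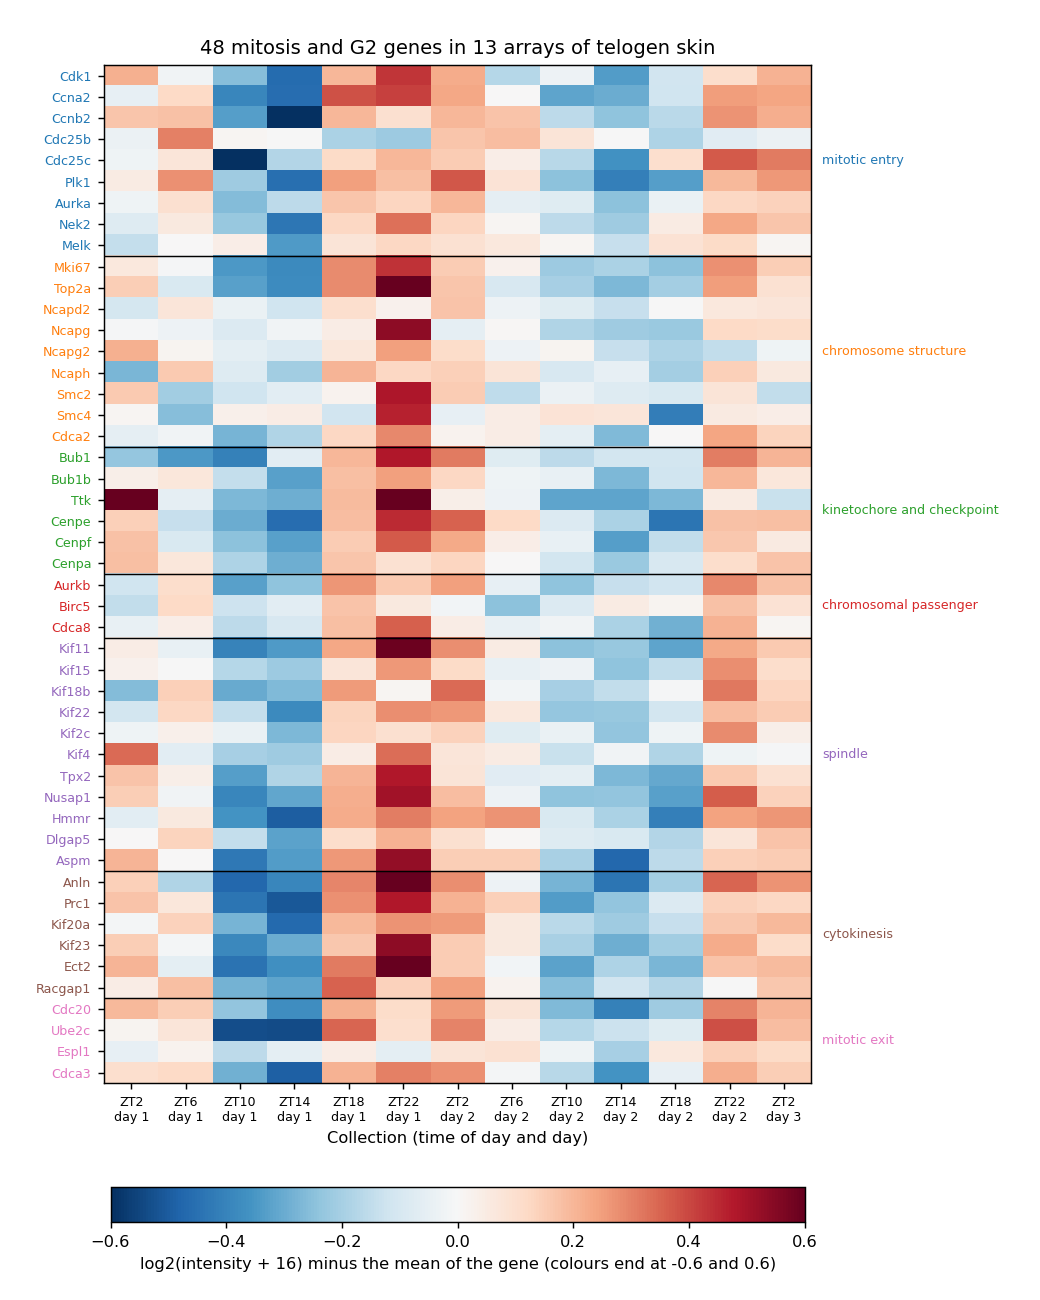
Each row is 1 of the 48 genes and each column 1 of the 13 arrays in order of collection, labelled by time of day and day. Colour is the log2 deviation from the gene's mean over the arrays, limited at 0.6 either way. The columns of ZT22 and ZT2 are mostly red and those of ZT10 and ZT14 mostly blue, and the pair at ZT18 differs, with means of 0.17 and -0.15.

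The question of the time course was which transcripts follow a 24 h rhythm, and it was addressed with a curve of 24 h period fitted to the log2 values of all 13 arrays. By an F test in limma, with p-values adjusted over 14953 genes after Benjamini and Hochberg, 17 of the 42 tested genes (40.48%) passed 0.05, against 2.13% of all genes tested. All 17 peaked between ZT18 and ZT6, which with the adjusted p held in 1.02% of all genes. At an unadjusted p under 0.05 the count was 33 of 42, against 18.5% of all genes. The fitted peak lay between ZT18 and ZT6 in 41 of 42, against 46.6% of all genes. It lay within 22 to 2 h in 38, a share not counted over all genes. The 17 that passed peaked between 22.9 h (Top2a) and 1.31 h (Plk1), with SE of 0.54 to 0.79 h, and had peak-to-trough folds of 1.31 (Cenpa) to 1.84 (Anln). The median fold was 1.39 over the 42 genes and 1.14 over all genes tested. Each array is 1 pool, so the test measures the spread between pools and not between mice.

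How many genes passed depended on the model and on single arrays. With a model of 6 times of day in place of the curve 0 of the 42 passed (44 of all genes did). With the collection day as a block 8 passed (211 of all genes did). The count was 1 without the hour 14 or the hour 38 array, 2 without hour 10, 7 without hour 6, 26 or 30, 9 without hour 34 or 50, 10 without hour 22 and 25 without hour 2. Of all genes, 128 passed without hour 14, 126 without hour 38 and 132 without hour 10. Without hour 6, 26, 30, 34 or 50 it was 179 to 203. Without hour 22 it was 289 and without hour 2 it was 414, against 318 with all arrays. Over these fits 40 or 41 of the 42 genes peaked between ZT18 and ZT6, a window of 12 h. Smc4 left it without hour 22.

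**Figure D2:**
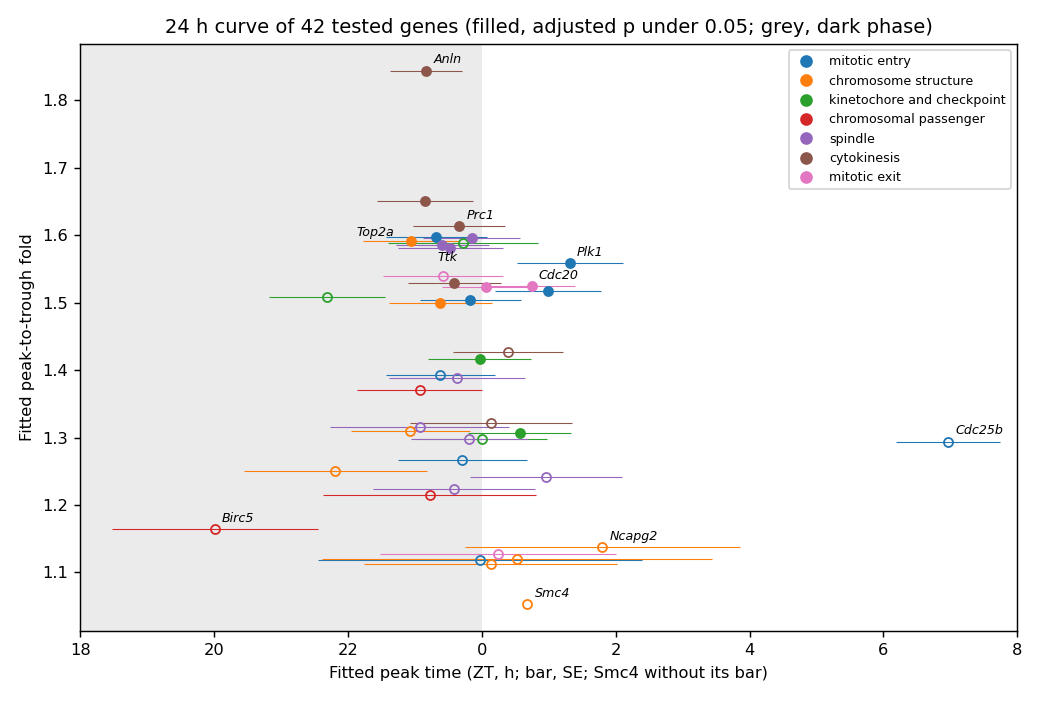
Fitted peak time (hours of ZT, with SE as bars) against fitted peak-to-trough fold for the 42 tested genes, coloured by role, filled where the adjusted p was under 0.05. All filled points lie between 22.9 and 1.31 h, and Cdc25b stands apart at 6.97 h.

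The regulators of mitotic entry, kinases, cyclins and phosphatases, had 4 of 8 tested genes rhythmic. Cdk1, the kinase that starts mitosis, had intensities of 355 and 417 at ZT10, 306 and 334 at ZT14, 492 and 392 at ZT18, 580 and 460 at ZT22, 497, 500.5 and 495 at ZT2, and 420 and 376 at ZT6. The lowest array around lights on was above the highest around lights off. Its fold was 1.50 (log2 0.59 ± 0.11, SE, n = 13 arrays) with a peak at 23.8 h and an adjusted p of 0.0369 (limma). Ccnb2, cyclin B2, a partner of CDK1, had 738 and 831 at ZT10, 607 and 784 at ZT14, 1070 and 830 at ZT18, 994 and 1125 at ZT22, 1045, 1071 and 1085 at ZT2, and 1053 and 1048 at ZT6. It was still high at ZT6, and its fitted peak was 0.99 h, with a fold of 1.52 (adjusted p 0.0371, limma). Ccna2, cyclin A2, had a fold of 1.60 at 23.3 h. Plk1, a kinase that activates CDC25 and matures the spindle poles, had a fold of 1.56 and the latest peak of those that passed, 1.31 h. Nek2, which separates the centrosomes, had a fold of 1.39 at an adjusted p of 0.0548, and Aurka, a kinase of the spindle poles, a fold of 1.27 at an adjusted p of 0.104 (both limma). Melk, a kinase expressed in dividing cells, had a fold of 1.12 at an adjusted p of 0.519.

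Cdc25b, a phosphatase that activates CDK1 early, was the exception in time and was singled out after its values were seen. Its intensity was 969 and 1014 at ZT10, 958 and 958 at ZT14, 840 and 842 at ZT18, 822 and 915 at ZT22, 936, 1078 and 938 at ZT2, and 1187 and 1094 at ZT6. It was highest at ZT6, where both arrays exceeded all others. The fitted peak was 6.97 h and the fold 1.29, with an adjusted p of 0.0621 (limma), so it did not pass.

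Of the chromosome structure genes 2 of 8 tested passed. Top2a, the topoisomerase that untangles sister chromatids, had 435 and 477 at ZT10, 419 and 453 at ZT14, 673 and 476 at ZT18, 854 and 657 at ZT22, 610 (hour 2), 619 (hour 26) and 586 (hour 50) at ZT2, and 514 in both ZT6 arrays. The ZT22 and ZT2 arrays were all above the ZT10 and ZT14 arrays, and the hour 42 array at ZT18 fell with the latter. Its fold was 1.59 (log2 0.67 ± 0.13, SE, n = 13) with a peak at 22.9 h and an adjusted p of 0.0316 (limma). Mki67, which coats mitotic chromosomes and is the common marker of dividing cells, had 797 and 872 at ZT10, 776 and 888 at ZT14, 1239 and 853 at ZT18, 1379 and 1232 at ZT22, 1062, 1131 and 1127 at ZT2, and 1012 and 1036 at ZT6. Its fold was 1.50 and its peak 23.4 h (adjusted p 0.0421, limma). The 5 tested subunits of condensin, the complex that compacts chromosomes (Ncapd2, Ncapg2, Ncaph, Smc2 and Smc4), did not pass, with folds of 1.05 to 1.25 and adjusted p-values of 0.279 or more (limma). None had an unadjusted p under 0.05. Cdca2, which brings a phosphatase to chromatin, had a fold of 1.31 and did not pass either (adjusted p 0.0861, limma). Smc4 was high in a single array, with 1528 at hour 22 against 825 to 1171 in the other 12, and it was singled out after its values were seen.

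Of the kinetochore and checkpoint genes 2 of 5 passed. Cenpa, the histone variant that marks centromeres, had 500 and 527 at ZT10, 463 and 487 at ZT14, 642 and 533 at ZT18, 609 and 615 at ZT22, 649, 625 and 644 at ZT2, and 600 and 572 at ZT6. The fold of 1.31 (log2 0.39 ± 0.07, SE, n = 13) had an adjusted p of 0.0348 (limma). Cenpf, a kinetochore protein that accumulates in G2, had 214 and 248 at ZT10, 202 and 201 at ZT14, 288 and 231 at ZT18, 336 and 290 at ZT22, 293, 304 and 268 at ZT2, and 240.5 and 265 at ZT6. Its fold was 1.42 with a peak at 23.97 h (adjusted p 0.0372, limma). The checkpoint kinases Bub1 and Ttk had larger folds, 1.51 and 1.59, with adjusted p-values of 0.0913 and 0.167 (limma). Ttk had 866 at hour 2 and 461 to 521 in the other ZT2 arrays. Bub1b, the checkpoint protein BUBR1, had a fold of 1.30 at an adjusted p of 0.104.

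The chromosomal passenger complex corrects faulty attachments, and none of its 3 genes listed here passed (limma), though 1 had an unadjusted p under 0.05. Aurkb, its kinase, had 501 and 532 at ZT10, 530.5 and 572 at ZT14, 760 and 581 at ZT18, 704 and 772 at ZT22, 579 (hour 2), 750 (hour 26) and 714 (hour 50) at ZT2, and 680 and 609 at ZT6. The lights-on arrays were above the lights-off arrays, with 579 at hour 2 closest to them. Its fold was 1.37 (log2 0.46 ± 0.11, SE, n = 13) and its adjusted p 0.101 (limma). Cdca8 (borealin) had a fold of 1.22 and Birc5 (survivin) one of 1.16, with a fitted peak at 20.01 h.

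Spindle motors and regulators had 3 of 8 tested genes rhythmic, and all 8 had an unadjusted p under 0.05. Nusap1, which bundles microtubules near chromosomes, had 369 and 412 at ZT10, 391 and 413 at ZT14, 571 and 386 at ZT18, 700 and 633 at ZT22, 544, 557 and 540 at ZT2, and 481 and 478 at ZT6. Its fold was 1.59 with a peak at 23.4 h (adjusted p 0.0259, limma). Aspm, a protein of the spindle poles, had 198 and 236 at ZT10, 213 and 192 at ZT14, 329 and 243 at ZT18, 399 and 303 at ZT22, 316, 303 and 305 at ZT2, and 273 and 303 at ZT6. Its fold was 1.60 (adjusted p 0.0308, limma), and only the hour 22 array exceeded 330. Kif11, the motor that pushes the spindle poles apart, had a fold of 1.58 at 23.5 h (adjusted p 0.0435, limma). Kif15, Kif18b, Kif2c, Tpx2 and Dlgap5, which move, shorten or assemble microtubules, had folds of 1.22 to 1.39 and did not pass.

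Cytokinesis genes held the 3 largest folds of the 42, and 4 of 6 were rhythmic. Anln, anillin, the scaffold of the contractile ring, had 532 and 611 at ZT10, 564 and 544 at ZT14, 914 and 643 at ZT18, 1189 and 953 at ZT22, 822, 906 and 900 at ZT2, and 654 and 727 at ZT6. Every lights-on array was above every lights-off array, with 822 the lowest of the former and 611 the highest of the latter. The fold was 1.84 (log2 0.88 ± 0.12, SE, n = 13), the peak 23.2 ± 0.54 h (SE) and the adjusted p 0.00533 (limma). Prc1, which bundles microtubules of the spindle midzone, had 275 and 297 at ZT10, 261 and 318 at ZT14, 460 and 356 at ZT18, 534 and 418 at ZT22, 428, 440 and 413 at ZT2, and 397 and 419 at ZT6. Its fold was 1.61 (adjusted p 0.0249, limma). Kif23, a motor of the midzone, and Ect2, which activates RhoA at the division plane, had folds of 1.53 and 1.65 and passed. Kif20a, another midzone motor, and Racgap1, the partner of Kif23, had folds of 1.43 and 1.32 with adjusted p-values of 0.0511 and 0.196 (limma).

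Genes that end mitosis had 2 of 4 rhythmic. Cdc20, the activator of the anaphase-promoting complex, had 285 and 279 at ZT10, 258 and 252 at ZT14, 395 and 289 at ZT18, 366 and 419 at ZT22, 389, 406 and 392 at ZT2, and 376 and 358 at ZT6. It stayed high through ZT6, and its fold of 1.53 (log2 0.61 ± 0.10, SE, n = 13) peaked at 0.74 h with an adjusted p of 0.0141 (limma). Cdca3, a factor for the degradation of WEE1, had a fold of 1.52 at 0.06 h (adjusted p 0.0169, limma). Ube2c, the ubiquitin-conjugating enzyme of the same complex, had a similar fold, 1.54, but more spread, with 765 to 1019 around lights off and 1130 to 1467 around lights on (adjusted p 0.0835, limma). Espl1, separase, which cuts cohesin, had a fold of 1.13.

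**Figure D3:**
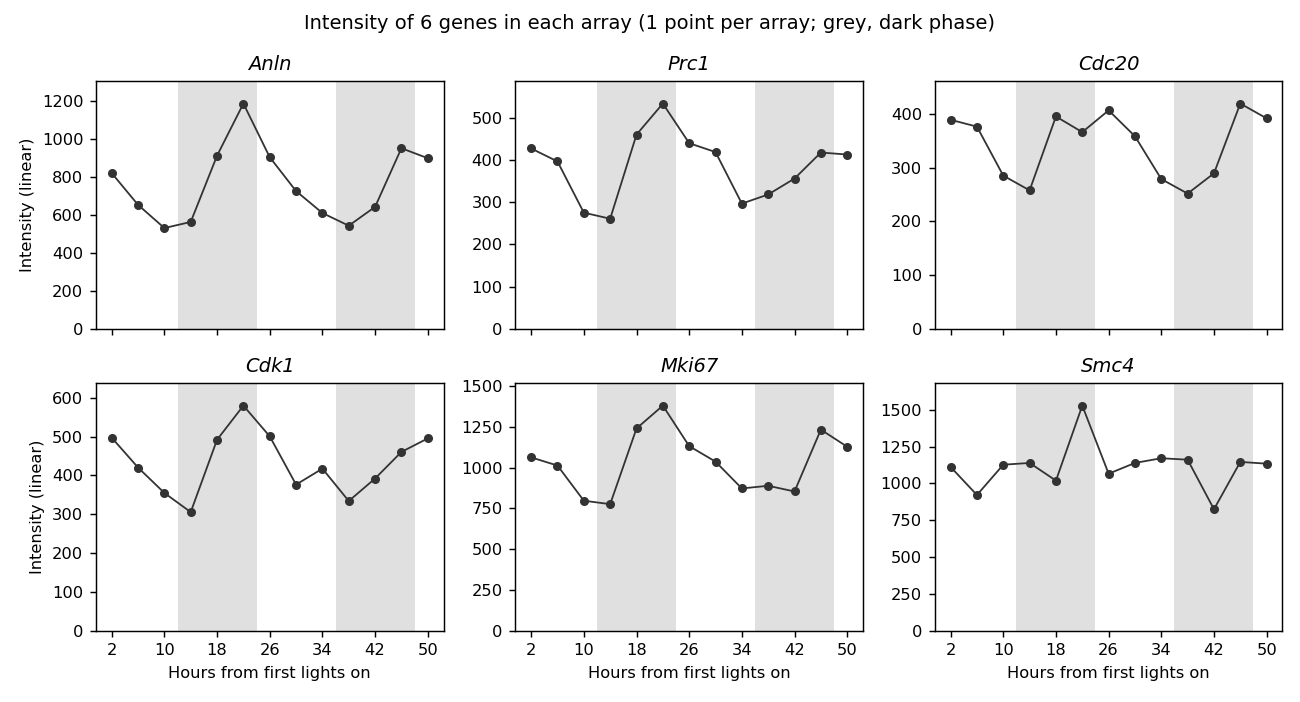
Linear intensity of Anln, Prc1, Cdc20, Cdk1, Mki67 and Smc4 in each of the 13 arrays against hours from the first lights on, with the dark phase in grey. In the first 5 the arrays at hours 10, 14, 34 and 38 lie below those at hours 2, 22, 26, 46 and 50, while Smc4 leaves its range of 825 to 1171 at hour 22, with 1528.

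Calls were kept unevenly by the members that passed. Over the alternative fits that tested each gene, Anln passed in 28 of 29, Cdc20 in 25 of 28, Kif23 in 23 of 29, Cdca3 in 22 of 28 and Nusap1 in 22 of 29. Prc1 passed in 21 of 28, Aspm in 20 of 28, Top2a in 19 of 29 and Ect2 in 14 of 28. The other called genes failed in more fits than they passed. Ccna2 passed in 13 of 29, Cenpf in 13 of 28, Cenpa in 12 of 29, Ccnb2 in 11 of 29 and Plk1 in 11 of 28. Cdk1 passed in 12 of 28 (adjusted p up to 0.25, limma), Kif11 in 11 of 28 and Mki67 in 10 of 29 (up to 0.356). None of these 17 genes turned its direction.

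The 6 dim genes also had fitted peaks near lights on. In a fit without the filter on dim genes their peaks lay between 23.1 h (Ncapg) and 1.06 h (Hmmr), with folds of 1.25 (Ncapg) to 1.54 (Cdc25c). None passed (limma), the closest being Cdc25c, a phosphatase that activates CDK1, with an adjusted p of 0.0522. Its lights-on minus lights-off difference, 0.53 ± 0.10 (log2, SE), did pass in that fit (adjusted p 0.0373, limma). Cdc25c, the kinetochore motor Cenpe, the chromosome motor Kif22 and the spindle protein Hmmr were higher in every lights-on array than in any lights-off array, and Ncapg and Kif4, both chromosome-bound, were not.

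A direct comparison of the 5 arrays around lights on (ZT22 and ZT2) with the 4 around lights off (ZT10 and ZT14) assumed no curve. The times were chosen with earlier results of these data known and the arrays are those of the 24 h fit, so it gives sizes and not separate evidence. In limma with Benjamini-Hochberg adjustment 22 of 42 genes were higher around lights on, against 0.883% of all genes tested, and 0 were lower, against 0.963%. The difference was above 0 in 41 of 42, against 47.2% of all genes, with a median of 0.40 (log2) against -0.01. In 30 of 42 every lights-on array was above every lights-off array, against 3.30% of all genes, and in 0 every one was below, against 3.01%. Among the genes that passed the difference ran from 0.32 ± 0.07 (Cdca2, a chromatin-bound phosphatase adaptor) to 0.74 ± 0.11 (Anln, SE). Cdca3 had 0.53 ± 0.08 and the smallest adjusted p, 0.00752, followed by Anln at 0.00828 and Cdc20 at 0.0120 (limma). With the collection day as a block 2 of the 42 genes passed, and 132 of all genes did in either direction. Anln, with 0.72 and an adjusted p of 0.0378 (limma), was among the 2, and 41 of 42 stayed above 0. Cdc25b was the one tested gene below 0, at -0.06 ± 0.07 (SE).

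By role the medians of this difference were 0.56 (log2) for cytokinesis, 0.53 for mitotic exit, 0.46 for mitotic entry, 0.40 for kinetochore and checkpoint, 0.37 for the spindle, 0.23 for the passenger complex and 0.18 for chromosome structure. The differences between roles were not tested. The count that passed was 3 without the hour 14 array, 4 without hour 10, 5 without hour 38, 8 without hour 26, 10 without hour 50, 11 without hour 6 or hour 30 and 14 without hour 22. Of all genes, 116 passed without hour 14, 121 without hour 10, 125 without hour 38 and 320 without hour 22. Without hour 6, 26, 30 or 50 it was 178 to 184. With all arrays 132 were higher and 144 lower. The mean difference over the 48 genes, 0.39, stayed between 0.35 and 0.42 with any 1 of the 9 arrays left out.

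**Figure D4:**
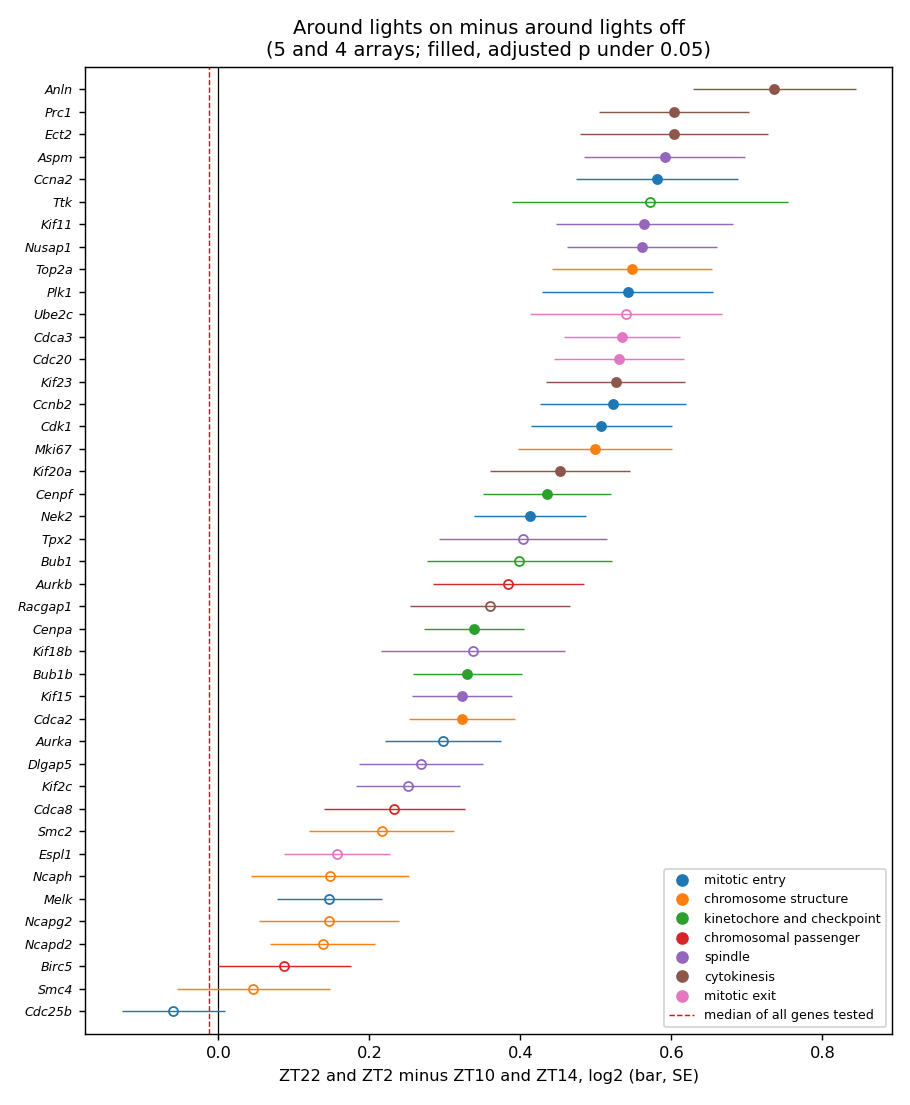
Difference between the means of ZT22 and ZT2 and of ZT10 and ZT14 for the 42 tested genes (log2, bars are SE), coloured by role and filled where the adjusted p was under 0.05. Only Cdc25b lies below 0, and the 22 filled points run from 0.32 to 0.74.

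The arrays with high levels and those with low levels each straddle a change of light, and dark against light was tested over all 13 arrays. None of the 42 genes passed (limma), against 0.0201% of all genes, and 1, Cdc25b, had an unadjusted p under 0.05, against 8.28%. Its dark minus light difference was -0.21 ± 0.07 (log2, SE) with an adjusted p of 0.467 (limma). The median difference was 0.005, with 22 of 42 (52.38%) above 0. Over all genes tested the median was -0.02, with 40.14% above 0.

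The second day was compared with the first over the 6 pairs of arrays of the same time of day. None of the 42 genes passed for a difference in level (limma), against 0.00% of all genes, and 1, Ttk, had an unadjusted p under 0.05, against 6.46%. None passed for a difference in the 24 h curve, against 0.00%. At an unadjusted p under 0.05 that count was 10 of 42, or 23.81%, against 12.8% of all genes, and the smallest adjusted p was 0.388 (limma). Curves fitted to each day alone peaked within 3 h of each other in 32 of 42 genes, against 28.5% of all genes. In most the peak was later on day 2, as in Anln (22.1 and 0.70 h), Mki67 (22.5 and 1.04 h) and Cdk1 (23.3 and 0.96 h). It was earlier on day 2 in Cdc25b (7.42 and 5.86 h) and Birc5 (19.65 and 19.43 h). A shift of the peak alone was not tested. The mean difference between lights on and lights off was 0.45 (log2) on day 1 and 0.35 on day 2. The difference was above 0 in 47 of the 48 genes on each day, and was larger on day 1 in 33. These counts were not made over all genes.

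The days differed most at ZT18, 6 h into the dark. There 45 of the 48 genes were lower at hour 42 than at hour 18, with a median of -0.31 (log2) and a range of -0.63 (Hmmr) to 0.02 (Espl1), while 52.0% of all genes were lower. Anln had 914 at hour 18 and 643 at hour 42, Mki67 1239 and 853, and Plk1 530 and 350. The mean of the 48 genes was 0.17 at hour 18, equal to that around lights on (0.17), and -0.15 at hour 42, nearer to that around lights off (-0.22). With 1 pool at each of these hours there is no test of this pair. At ZT22 33 of 48 were lower on the second day (median -0.12), against 54.5% of all genes. At ZT2 and ZT10 38 and 39 of 48 were higher (medians 0.11 and 0.11), against 57.7% and 61.2% of all genes. At ZT14 30 of 48 were higher (median 0.07), against 44.8% of all genes. At ZT6 29 of 48 were lower (median -0.04), against 48.5%.

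Other genes of the pathway came from lists written with earlier results of these data known. Of 72 other mitosis genes with a probe set 48 were tested, of which 3 (6.25%) were rhythmic, against 2.13% of all genes tested. An unadjusted p under 0.05 was found in 18 (37.5%), against 18.5%. Peaks lay between ZT18 and ZT6 in 39 (81.25%), against 46.6%. Sgo2a, a protector of centromere cohesion, had intensities of 241 to 292 around lights off and 352 to 434 around lights on, with a fold of 1.57 at 0.53 h (adjusted p 0.0160, limma). Cenpt, a kinetochore anchor, had 1.25-fold and Incenp, the scaffold of the passenger complex, 1.36-fold. Cks2, a small partner of CDK1, had 1.50-fold at 23.9 h and did not pass (adjusted p 0.0549, limma). Incenp passed in 8 of 28 alternative fits. The median fold of these 48 genes was 1.17, between that of the 42 genes (1.39) and of all genes (1.14).

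Among 28 tested regulators that act upstream of G2 and mitosis 1 (3.57%) was rhythmic, near the 2.13% of all genes tested. This gene, Wee1, ran opposite to the mitosis genes. Wee1, which inhibits CDK1 and is a known target of the clock, had 1794 and 1948 at ZT10, 1380 and 1366 at ZT14, 863 and 1004 at ZT18, 1022 and 814 at ZT22, 1013, 687 and 584 at ZT2, and 985 and 948 at ZT6. Its fold was 2.17 with a peak at 11.8 h (adjusted p 0.0300, limma), at the time when the mitosis genes were low. Foxm1, whose product activates many of them, had a fold of 1.26 at 23.2 h and did not pass (adjusted p 0.313). E2f2 (1.36-fold, 21.8 h), Gadd45b (1.33-fold, 5.82 h) and Mybl2, the gene of B-MYB (1.26-fold, 15.2 h), did not pass either.

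Genes of DNA replication and S phase were near the background of all genes in these counts. None of 31 tested passed (limma), 6 (19.35%) had an unadjusted p under 0.05, against 18.5% of all genes, and 11 (35.48%) peaked between ZT18 and ZT6, against 46.6%. Their difference from the mitosis genes was not tested. The median difference of lights on minus lights off was -0.09 (log2), against 0.40 for the mitosis genes. Those with the smallest p were Mcm10 (1.28-fold, 12.3 h), Ccne2 (1.39-fold, 10.95 h), Tk1 (1.23-fold, 11.0 h) and Mcm3 (1.26-fold, 9.13 h), of replication origins, G1 exit and nucleotide supply. The mean of the list was highest at ZT10, at 0.15 in both arrays, where the mean of the mitosis genes was -0.25 and -0.14. For scale, all 15 core clock genes passed, with 4.61-fold at 22.2 h for Arntl, the gene of BMAL1, and 20.8-fold at 9.88 h for Dbp.

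**Figure D5:**
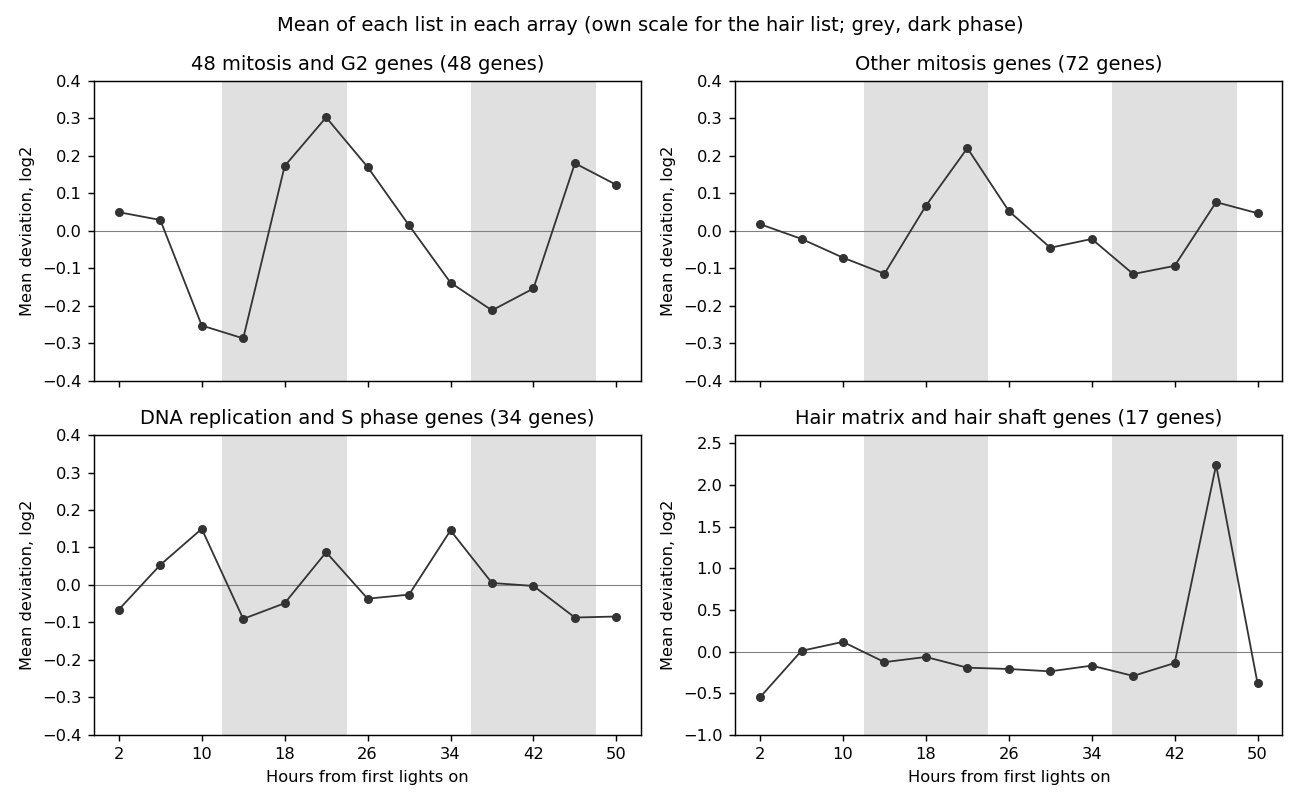
Mean log2 deviation from each gene's mean, per array, against hours from the first lights on, for the 48 genes, 72 other mitosis genes, 34 replication and S phase genes and 17 hair genes, the last on its own scale; grey is the dark phase. The 2 mitosis lists are high at hours 22 and 46 and low at hours 14 and 38, the S phase list is highest at hours 10 and 34, and the hair list reaches 2.24 at hour 46.

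Markers of skin cell types were read beside these values. The mean of 10 basal keratinocyte markers stayed between -0.06 and 0.04 (log2) in all arrays, while that of the 48 genes moved by 0.59. Of the 10, 1 was rhythmic (Sfn). Single basal markers went both ways, with lights-on minus lights-off differences from -0.24 (Dst) to 0.39 (Sfn). These were above 0 in 5 of 10, against 47.2% of all genes. As list means, the difference was 0.02 for the basal markers and 0.17 for 7 suprabasal markers, of which 2 were rhythmic. It was 0.30 for the 17 hair genes, 0.09 for 10 endothelial and 0.03 for 7 T and NK cell markers. For 10 macrophage and dendritic cell markers it was -0.13, and for 9 adipocyte markers -0.23. Their part in the mitosis results was not tested beyond the following fits. With the hair list as a covariate 16 of 42 genes were rhythmic and 29 higher around lights on. Of all genes tested, 443 were rhythmic and 1888 differed around lights on in either direction. The main fits had 318 rhythmic, 132 higher around lights on and 144 lower. With the hour 2 and hour 46 arrays left out 15 and 32 of the 42 passed, and 428 and 2237 of all genes. The higher lights-on counts of these fits came with a rise over all genes. The receptor genes, with a lights-on minus lights-off difference of -0.19, left 2 and 3 as a covariate, with 156 and 110 of all genes. The liver genes, with -0.74, left 9 and 7, with 313 and 188 of all genes. Sizes in these fits are given for 2 genes and were not summarized over the 42. Of these, Anln kept its lights-on call in 25 of 25 alternative fits and Cdk1 in 16 of 24. The lights-on difference of Anln was 0.70 with the receptor covariate and 0.72 with the liver covariate, against 0.74 without one, and that of Cdk1 was 0.41 and 0.48, against 0.51. With the receptor covariate 40 of 42 genes stayed above 0, and with the liver covariate 41.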

How the data were processed

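RNA of whole skin, pooled from 3 mice per array, was measured on 13 Affymetrix whole-transcript arrays. The authors deposited linear intensities, 1 value per probe set and array. The submitters' processing notes name Affymetrix Expression Console 1.1.1 and PLIER 2.0. How arrays were normalized to each other, and the genome build, are not stated in the sources used here. The platform annotation gave 1 gene for 21789 of 35557 probe sets and several for 1621, and did not list 12147. The brightest probe set on average stood for a gene where several measured it (999 genes). This left 19938 genes, with symbols updated through RefSeq.

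Deposited intensities were transformed to log2(intensity + 16), on which folds of dim genes are understated, and the dimmest 25% of genes were left out. Tests used limma 3.58.1 in R 4.3.3 (lmFit and eBayes, Benjamini-Hochberg adjustment over 14953 genes, threshold 0.05), and were tested on simulated data. The 24 h fit had 10 residual degrees of freedom. Replicates are separate pools taken 24 h apart, and no 2 arrays were identical. The number of arrays limits the precision.

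The members and lists were chosen with earlier results of these data known. Values in every array are given for the member with the smallest p in each role, for the second smallest in roles of 6 or more, and for Mki67 and Cdk1. From the other pathway lists the 4 genes with the smallest p, Wee1 and Foxm1 were named, and from the core clock Arntl and Dbp. Other genes were named to account for all members. Alternatives covered the offset, the filter, normalization, probe set choice, covariates, a day block and arrays left out.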

Additional observations from a re-analysis of the deposited data

Results flagged for a closer look

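An array was looked at again where it lay far from the rest of its group of 4 to 7 arrays, by Dixon's criterion at 95%. This held in 12 of 196 groups, 4 for each of the 48 genes and 4 for their mean, and chance alone picks about 1 group in 20. In 7 cases it was the hour 22 array, which was higher than the other arrays. Around lights on these were Smc4 (1528, next 1146), Tpx2 (379, next 302), Aspm (399, next 316), Prc1 (534, next 440), Kif23 (734.5, next 587) and Ect2 (747, next 546), and in the dark Smc2 (523.5, next 391). In 4 cases it was the hour 2 array, which was lower for Melk in the light (366, next 407), Ncaph around lights on (356.5, next 454) and Hmmr around lights on (159, next 201), and higher for Ttk in the light (866.5, next 521). Smc4 was low at hour 6 in the light (921.5, next 1066).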

How the results depend on the processing

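These counts are all genes called among the members, not only those called in the report. Against 17 with a 24 h rhythm, 9 were called with no filter on dim genes, with 227 of all genes. With the dimmest 50% left out it was 9 of 15 members tested, with 269 of all genes. The receptor gene mean as a covariate gave 2, with 156 of all genes, and the collection day as a replicate block 8, with 211. Hours 2 to 46 gave 9, with 203, and 6 times of day in place of the curve 0, with 44. Alternatives added after seeing the data gave 9 with the liver list as a covariate, 2 without both ZT22 arrays and 17 without both ZT18 arrays. Of all genes these fits called 313, 291 and 231. Leaving out 1 array gave 1 to 25, with 126 to 414 of all genes called. The other alternatives gave 15 to 25. Against 22 higher around lights on, 8 were called with the dimmest 50% left out and 3 with the receptor covariate. The collection day as a replicate block gave 2 and the liver list (added) 7. Of all genes these fits called 225, 110, 132 and 188, in either direction. Leaving out 1 array gave 3 to 27, with 116 to 1236 of all genes called. The other alternatives gave 20 to 32, and the 32 came with 2237 of all genes called. The day block takes its numbers from the order of collection, and different mice were used at each time. Dark against light, the second day against the first and the interaction had 0 members in every alternative run with limma. Among the genes named, Smc4 and Gadd45b turned their direction, and the cause was not tested. The 24 h curve of Smc4 peaked at 7.97 h (log2 0.14) without hour 22 and at 8.58 h (0.22) without both ZT22 arrays, with 0.068 to 0.18 over all arrays left out singly. Its lights-on difference was -0.040 with the receptor covariate, -0.044 without hour 22 and up to 0.084 without another array. That of Gadd45b was -0.13 with the receptor covariate, -0.052 without hour 2, -0.0081 without hour 14, -0.019 without hour 26 and up to 0.14 without another array. Single-gene calls rest on 13 pools, and genes near background are limited by their dim signal.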
